A study of Mus musculus with 6 samples.

Results

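The voltage-gated calcium channel subunits examined here were the 8 genes *Cacna1c*, *Cacna1d*, *Cacna1s*, *Cacna1g*, *Cacna1h*, *Cacna2d1*, *Cacnb2* and *Cacnb1*, chosen by gene symbol from a table of 21776 genes. All 8 had a row in the table, and all passed the filter of a mean of at least 10 over the hearts. Total RNA of 3 *Trdn-as* KO and 3 WT mouse hearts had been sequenced with the strand kept. *Trdn-as* is a long RNA without a protein product, and its KO allele carries a polyadenylation site placed in exon 1 by Cas9 editing of embryonic stem cells. KO mice were homozygous after crossing to C57BL/6, and the allele is not limited to one cell type by its construction, although the series text speaks of deficiency in cardiomyocytes. Hearts were from adult mice per the series title, and the age in weeks, the sex and the litter were not given in the sources used here. *Trdn-as* lies antisense inside *Trdn*, the gene of triadin, which joins the calcium release channel of the sarcoplasmic reticulum to its calcium store.

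A voltage-gated calcium channel is built around one alpha-1 subunit, a large protein that forms the pore and senses voltage. Channels of the L-type add a cytoplasmic beta subunit, which brings the pore to the cell surface, and an extracellular alpha-2/delta subunit, which raises the number and activity of channels. T-type channels open at more negative voltages and are best known in pacemaker and embryonic heart cells. In ventricular cardiomyocytes the L-type channel sits in the T-tubule opposite the ryanodine receptor, and the calcium it admits triggers release from the store. In skeletal muscle its counterpart acts as a voltage sensor that is coupled mechanically to the release channel. The question put to these data was therefore whether loss of *Trdn-as* came with a different amount or mix of channel subunit transcripts.

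The binding site of the beta subunit on the pore, the alpha interaction domain, separates the L-type from the T-type pore genes in this set, so 30 bases of its coding sequence are shown for the cardiac L-type pores as context for the levels of pore and beta transcripts described below. They were located by searching the translated GENCODE M21 transcripts (GRCm38) for the conserved residues of the domain, and are written 5′ to 3′ in transcript sense with capitals where a base differs from *Cacna1c*.
*Cacna1c*: cagcaactagaagaagatctcaaaggctac
*Cacna1d*: cagcaGctGgaagaGgaCctcaaGggctac
The stretches lie in coding exons at chr6:118734930-118734959 (minus strand, exon 9 of 47 of the transcript read) and chr14:30142624-30142653 (minus strand, exon 9 of 47). *Cacna1d* differed from *Cacna1c* at 5 of the 30 bases. The bases of *Cacna1c* were found in all 22 coding transcripts of *Cacna1c*, and those of *Cacna1d* in all 5 of its own. No match was found in the 11 coding transcripts of *Cacna1g* or the 5 of *Cacna1h*, which says only that these residues do not occur there in this form.

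At the full read length the 8 genes can be counted apart. Reads were 75 bases long before trimming, and for 0 of the 8 genes did any 75-base stretch of an annotated transcript recur in a transcript of another gene. Likewise 0 of the 8 shared an exonic base with another gene on the same strand. Shorter stretches, which trimming can leave, were not checked. The genes lie on 7 chromosomes, none of them chromosome 10, which carries *Trdn*. By the coordinates of the table (GRCm38), *Cacna1c* (ENSMUSG00000051331) spans chr6:118587240-119196418 on the minus strand, *Cacna1d* (ENSMUSG00000015968) chr14:30039941-30491156 on the minus strand and *Cacna1s* (ENSMUSG00000026407) chr1:136052750-136119822 on the plus strand. The T-type genes are *Cacna1g* (ENSMUSG00000020866) at chr11:94408391-94474198 and *Cacna1h* (ENSMUSG00000024112) at chr17:25374285-25433783, both on the minus strand. *Cacna2d1* (ENSMUSG00000040118) lies at chr5:15934691-16374511 and *Cacnb2* (ENSMUSG00000057914) at chr2:14604306-14987908, both on the plus strand. *Cacnb1* (ENSMUSG00000020882) lies at chr11:98001508-98022634 on the minus strand. A count per gene cannot separate the splice forms of these genes.

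The libraries held an estimated 2.59 to 3.62 M counted reads. *Trdn-as* (ENSMUSG00000112707) was at 1, 0 and 1 normalised reads in KO replicates 1 to 3 against 690, 773 and 688 in WT replicates 1 to 3, which fits the genotype labels. Values below follow the same order of replicates. *Trdn* was at 2489, 2381 and 2551 against 1541, 1541 and 1516. The defining cardiomyocyte markers *Myh6*, *Tnnt2*, *Tnni3*, *Myl2*, *Myl3*, *Actc1*, *Pln* and *Ryr2* were abundant in every heart. In bulk tissue, fewer cells of a type and less RNA per cell cannot be told apart. WT replicate 1 was the shallowest library and had the highest summed cardiomyocyte markers, 26365 against 20607 to 23696 in the other hearts.

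None of the 8 subunit genes passed the test between KO and WT hearts. At an adjusted p of 0.05 the count was 0 of 8 (limma on log2(value + 1), two-sided, Benjamini-Hochberg over 13753 genes), where 0.0291% of all tested genes passed. At an unadjusted p under 0.05 it was also 0 of 8, against 5.74% of all tested genes, and limma-voom gave 0 of 8 on both counts. Of the 8 genes, 5 had a log2 fold change below 0 and 3 above, against 49.4% of all tested genes below 0, and their median log2 fold change was -0.08 where that of all tested genes was 0.00. The smallest adjusted p was 0.879, for *Cacna2d1*. The size of change that the data leave possible differed between genes. The 95% interval of the fold change lay within 1.5-fold in either direction for 6 of the 8, and reached past it for *Cacna1s* (lower) and *Cacna1h* (higher). The sources do not say whether hearts of one group came from separate litters, and the p-values cover only these 6 hearts. In limma the variance of each gene is drawn toward that of genes of similar level, with 15.4 prior against 4 residual degrees of freedom. Each SE, interval and p-value therefore does not rest on the spread of its own gene alone.

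**Figure D1:**
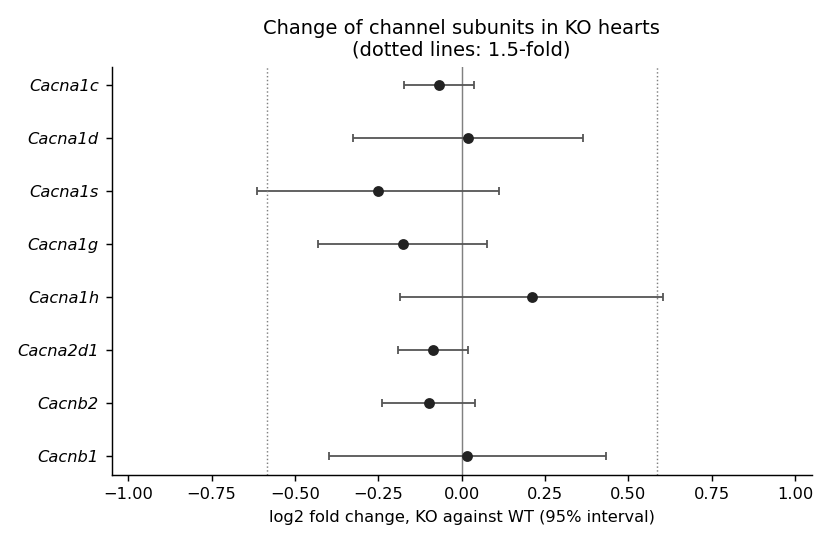
Log2 fold change of each subunit transcript in KO against WT hearts (horizontal axis, log2 scale of value + 1), with points for the limma estimate and bars for its 95% interval (3 KO and 3 WT hearts), and dotted lines at a 1.5-fold change. All 8 intervals include 0, and those of *Cacna1s* and *Cacna1h* are among the widest and cross a dotted line.

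*Cacna1c* encodes the pore of the main cardiac L-type channel. KO hearts had 2336, 2246 and 2241 normalised reads, and WT hearts had 2419, 2394 and 2338. All 3 KO values lay below all 3 WT values, but the highest KO heart and the lowest WT heart differed by only 2 reads. The means were 2274 ± 53.5 in KO and 2384 ± 41.5 in WT (SD, n = 3 each), and the log2 fold change of -0.07 ± 0.05 (SE) had an adjusted p of 0.905 (limma). The 95% interval of the fold change ran from 0.886 to 1.03. The spread between hearts was small, with a coefficient of variation of 2.35% in KO and 1.74% in WT, and counting error alone would give 2.06% at this depth.

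*Cacna2d1* encodes the alpha-2/delta-1 subunit, the extracellular partner that is the target of gabapentin drugs. Its counts were 2062, 2080 and 2124 in the KO against 2182, 2241 and 2224 in the WT. As with *Cacna1c*, the groups did not overlap. The means of 2089 ± 31.9 and 2216 ± 30.4 (SD, n = 3 each) differed by -0.09 ± 0.05 (SE) on the log2 scale, with an adjusted p of 0.879 (limma) and an interval from 0.876-fold to 1.014-fold. *Cacna1c* and *Cacna2d1* were the 2 of 8 subunit genes whose groups did not overlap, both lower in KO. Over all tested genes, 4.44% were lower in KO without overlap and 9.07% did not overlap in either direction.

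*Cacnb2* encodes the principal beta subunit of the heart. Its counts were 640, 578 and 601 in the KO against 699, 613 and 638 in the WT, so that 2 KO hearts lay below every WT heart and the third lay among them. The log2 fold change came to -0.10 ± 0.07 (SE), the adjusted p to 0.894 (limma), and the interval ran from 0.847-fold to 1.03-fold. Without WT replicate 1, the library with the highest cardiomyocyte markers, the log2 fold change was -0.05, and over the removal of each library it ran from -0.14 to -0.05. *Cacnb1*, the beta subunit of the skeletal muscle channel, was the lowest of the set in reads. It had 35, 34 and 48 in the KO against 45, 34 and 36 in the WT, and the groups overlapped. Its log2 fold change of 0.02 (SE 0.20) had an interval from 0.759-fold to 1.35-fold. That value had no fixed direction, running from -0.14 to 0.14 over the removal of each library.

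All 8 of the cardiomyocyte markers also had lower means in KO than in WT hearts, 0 of them past an adjusted p of 0.05 and 5 with an unadjusted p under 0.05 (limma), where 0.0291% and 5.74% of all tested genes had such values. Their summed counts were 20607 to 22005 in KO and 21471 to 26365 in WT hearts. Their part in the small differences of *Cacna1c*, *Cacna2d1* and *Cacnb2* was not tested. After each library was corrected for the trend of its deviations with reads per exonic kilobase, the log2 fold change was -0.04 for *Cacna1c*, -0.03 for *Cacna2d1* and -0.10 for *Cacnb2*.

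**Figure D2:**
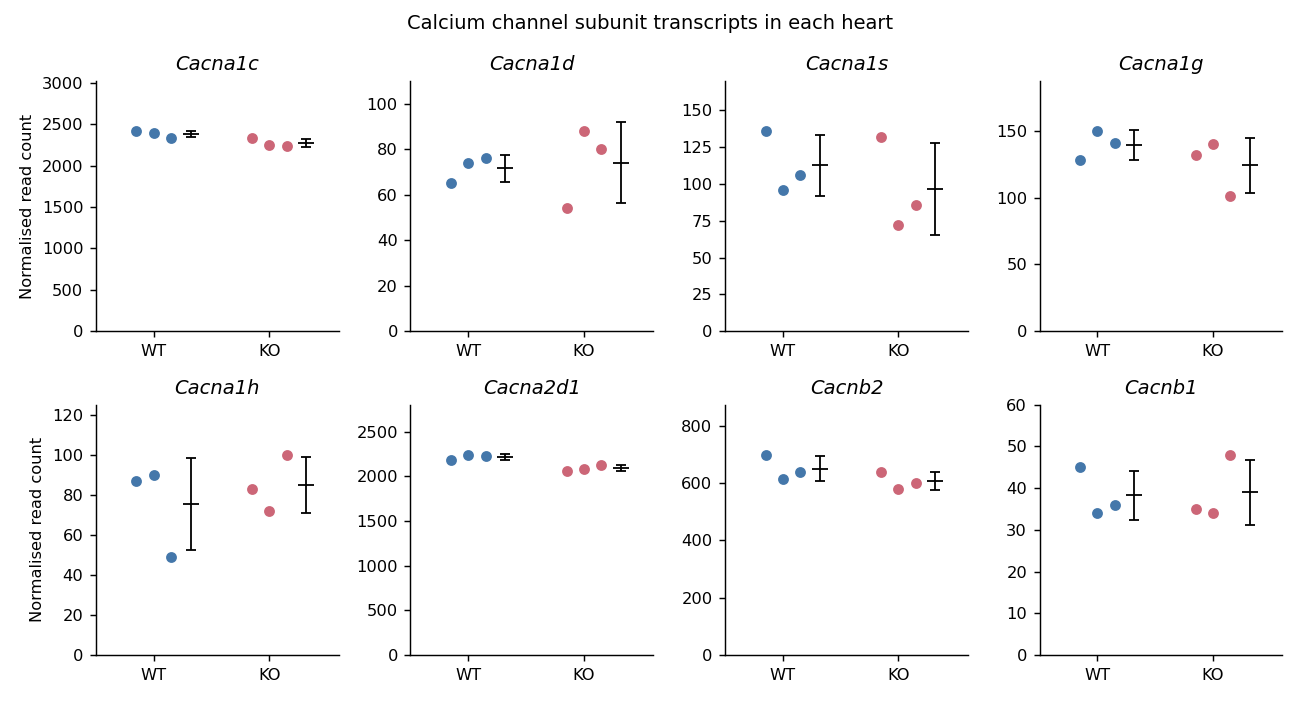
Normalised read count (vertical axes, linear from 0) of each subunit gene in the 3 WT hearts (blue) and the 3 KO hearts (red), with black bars for the mean ± SD. KO points lie below all WT points for *Cacna1c* and *Cacna2d1*, and the groups overlap for the other 6 genes.

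*Cacna1d* and *Cacna1s* are the other L-type pores. *Cacna1d*, which carries L-type current in the sinoatrial node and atria, had 54, 88 and 80 reads in the KO against 65, 74 and 76 in the WT. The KO hearts held both the lowest and the highest value. The log2 difference was 0.02 ± 0.17 (SE), with an interval from 0.797-fold to 1.29-fold. Over the removal of each library it ran from -0.12 to 0.23, with no fixed direction. Among 8 atrial markers the summed counts were 1355 to 1550 in KO and 1429 to 1609 in WT hearts, and among 7 markers of the sinoatrial node and conduction system they were 356 to 472 and 345 to 501. Both ranges overlapped. With 7 and 5 markers tested, 0 of either list had an unadjusted p under 0.05 (limma), against 5.74% of all tested genes.

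*Cacna1s* encodes the pore of the skeletal muscle channel, the voltage sensor of the triad. It was counted in every heart, with 132, 72 and 86 reads in the KO against 136, 96 and 106 in the WT. In each genotype replicate 1 was the highest, and the other KO hearts lay below all WT hearts. The means of 96.7 ± 31.4 and 113 ± 20.8 (SD, n = 3 each) differed by -0.25 ± 0.17 (SE) on the log2 scale, with an adjusted p of 0.8997 (limma) and an interval from 0.653-fold to 1.08-fold. Single libraries set the size of this value. Without KO replicate 1 the log2 fold change was -0.50 (limma, unadjusted p = 0.00368, adjusted p = 0.275), without KO replicate 2 it was -0.06 and without WT replicate 1 it was -0.11. Over all alternatives the adjusted p ran from 0.275 to 0.999 (limma).

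Markers of fast skeletal muscle were measured beside *Cacna1s*, and their part in its values was not tested. Of 10 markers of that tissue, *Myh1* and *Myh4* were not analysed here and the other 8 summed to 24 to 27 normalised reads in KO and 22 to 29 in WT hearts. None of the 8 passed the filter. *Tnni2*, fast troponin I and the highest of them by mean, had 10, 8 and 10 reads in the KO against 6, 6 and 5 in the WT, and its groups did not overlap. *Actn3* was at 3, 1 and 2 in the KO against 0, 2 and 1 in the WT, values at or near the floor of 3 reads. *Myh2* (0, 2 and 0 against 3, 1 and 3), *Mylpf* (5, 0 and 1 against 4, 3 and 5) and *Atp2a1* (1, 3 and 3 against 0, 5 and 5) had lower means in the KO, with overlapping groups. *Ryr1*, the release channel with which the skeletal pore works, was at 2, 4 and 8 against 8, 4 and 3. *Stac3*, an adaptor of the skeletal channel, had 15, 13 and 21 reads against 9, 19 and 10, with a log2 difference of 0.39 ± 0.33 (SE).

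The fold changes of the T-type pores had opposite signs, and both intervals included 0. *Cacna1g* had 132, 140 and 101 reads in the KO against 128, 150 and 141 in the WT. KO replicate 3 was the low heart, and the others lay among the WT values. The log2 fold change came to -0.18 ± 0.12 (SE) at an adjusted p of 0.895 (limma), with an interval from 0.741-fold to 1.055-fold. Without KO replicate 3 it was -0.04, and without KO replicate 2 it was -0.27, the ends of the range over the removal of each library. *Cacna1h*, which is also expressed in vascular smooth muscle, had 83, 72 and 100 reads in the KO against 87, 90 and 49 in the WT. WT replicate 3 was the low heart here, and its removal turned the log2 fold change from 0.21 (SE 0.19) to -0.07, so *Cacna1h* had no direction that held without this library. The adjusted p was 0.923 (limma) and the interval ran from 0.880-fold to 1.52-fold. WT replicate 3 also stood apart in *Bmp10*, an atrial marker, with 56 reads against 0 to 8 in the other 5 hearts. The other atrial markers did not set it apart. *Myl4* was at 182 there against 208 in KO replicate 2, and *Myl7* at 30 against 47. A link of *Bmp10* to the low *Cacna1h* value was not tested. The 6 smooth muscle markers summed to 1957 to 2099 in KO and 2035 to 2244 in WT hearts. Of these, 2 were higher and 4 lower in KO, where 49.4% of all tested genes had a log2 fold change below 0. Only 1 had an unadjusted p under 0.05 by limma, against 5.74% of all tested genes. This was *Myocd*, with a lower mean in KO and an adjusted p of 0.807 (limma). *Myocd* had the highest mean of the 6, at 755, and the cells that its reads came from were not determined. *Acta2* had 247, 247 and 242 against 267, 261 and 279, without overlap, as had 9.07% of all tested genes in either direction. *Cnn1* and *Smtn* were the 2 with a higher mean in KO, *Cnn1* with 15, 17 and 19 against 10, 13 and 15.

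Levels were compared between genes as normalised reads per kilobase of annotated exon (union of exons, GENCODE M21). The union takes in the exons of all annotated transcripts, so it lowers the level of genes whose transcripts use only part of them. It was 21.2 kb over 27 transcripts for *Cacna1c* and 12.4 kb over 12 for *Cacna2d1*. In reads, without length, *Cacna2d1* was at 88.3 to 95.1% of *Cacna1c*, the reverse of the order below. *Cacna2d1* was the highest at 173 ± 6.04 (SD, n = 6 hearts), in the top 3.35% of the 13737 tested genes with an exon length. *Cacna1c* followed at 110 ± 3.47, in the top 8.40%. *Cacnb2* was at 47.5 ± 3.16. In all 6 hearts these levels stood in the same order, and the ranges of neighbours did not overlap. Then came a group of low transcripts, *Cacna1s* at 16.0 ± 3.88, *Cacna1g* at 13.02 ± 1.68, *Cacnb1* at 8.54 ± 1.37, *Cacna1h* at 8.21 ± 1.82 and *Cacna1d* at 5.77 ± 0.943. The lowest heart of *Cacnb2* was at 43.7, and the highest heart of *Cacna1s* at 20.8. Each neighbouring pair within the low group overlapped in range. The order of *Cacna1s* and *Cacna1g* and that of *Cacnb1* and *Cacna1h* each held in only 4 of 6 hearts.

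**Figure D3:**
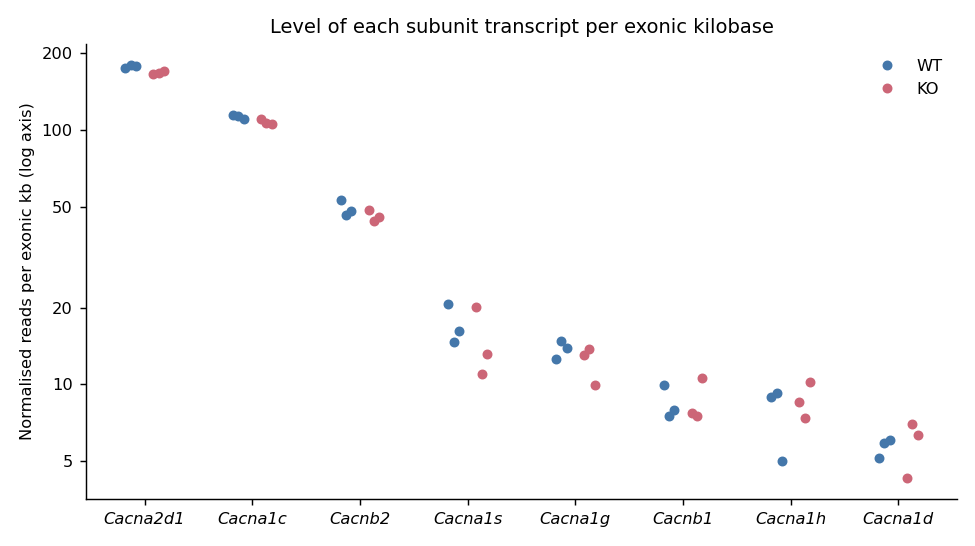
Level of each subunit transcript as normalised reads per exonic kilobase (vertical axis, log scale), with 1 point per WT heart (blue) and KO heart (red). *Cacna2d1*, *Cacna1c* and *Cacnb2* form separate steps in this order, and the other 5 genes lie between 4.28 and 20.8 with overlapping neighbours.

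Each of the 5 pore genes took a share of the pore transcripts whose range overlapped between the genotypes. *Cacna1c* made up 70.6, 73.0 and 72.7% of the summed pore level per exonic kilobase in the KO against 70.6, 71.7 and 72.8% in the WT. *Cacna1s* was the second largest share in 4 of 6 hearts, at 9.84 ± 2.76% in KO and 11.0 ± 1.79% in WT (SD, n = 3 each). *Cacna1g* held 8.24 ± 1.34 and 8.80 ± 0.858%, *Cacna1h* 5.86 ± 1.04 and 4.89 ± 1.38%, and *Cacna1d* 3.97 ± 1.09 and 3.63 ± 0.403%. Per exonic kilobase, *Cacna1c* exceeded *Cacna1d* by 15.2-fold to 25.8-fold and *Cacna1s* by 5.47-fold to 9.64-fold over the 6 hearts. *Cacna1g* was above *Cacna1h* in 5 of 6 hearts, and *Cacnb2* was above *Cacnb1* in 6 of 6, by 4.29-fold to 6.26-fold. The pore *Cacna1c* was above the beta subunit *Cacnb2* by 2.16-fold to 2.44-fold.

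Ratios taken within a heart do not depend on the scaling of its library, and 4 were compared by an exact two-sided permutation test, which with 3 against 3 hearts cannot give a p under 0.1. The ratio of the skeletal to the cardiac L-type pore, *Cacna1s* to *Cacna1c*, was 5.65, 3.21 and 3.84% of reads in the KO against 5.62, 4.01 and 4.53% in the WT. The mean log2 ratio differed by -0.18 (KO minus WT), less than the SD of 0.413 among KO hearts (exact permutation p = 0.5, adjusted over the 4 ratios 0.7). Single libraries set the size of this difference, which was -0.005 without KO replicate 2 and -0.41 without KO replicate 1. The ratio of *Cacnb1* to *Cacnb2* was 5.47, 5.88 and 7.99% against 6.44, 5.55 and 5.64% (exact permutation p = 0.7). T-type over L-type pores, *Cacna1g* plus *Cacna1h* to *Cacna1c* plus *Cacna1d*, gave 8.996, 9.08 and 8.66% against 8.66, 9.72 and 7.87% (exact permutation p = 0.7). *Cacna2d1* to *Cacna1c* was 88.3, 92.6 and 94.8% against 90.2, 93.6 and 95.1% (exact permutation p = 0.6). In all 4 the groups overlapped. A p of this size does not show that the ratios were equal.

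**Figure D4:**
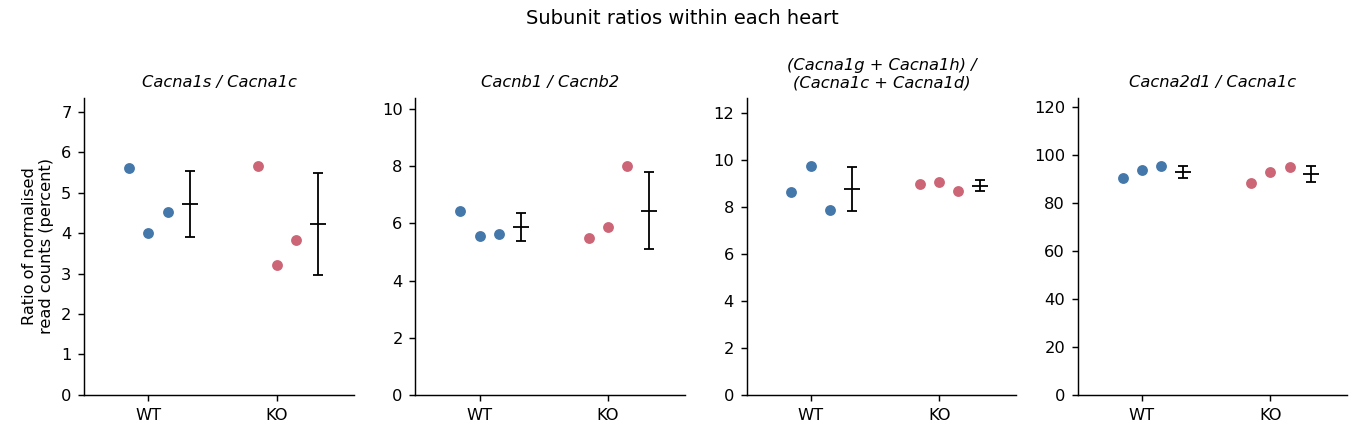
Ratios of normalised read counts within each heart, in percent (vertical axes, linear from 0), for WT hearts (blue) and KO hearts (red) with black bars for the mean ± SD. The groups overlap in every panel, and *Cacna2d1* to *Cacna1c* stays between 88.3 and 95.1% in the 6 hearts.

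The other genes of the channel family were few and low. Of 18 further family genes, 11 had values in these data and 6 passed the filter, with 4 higher and 2 lower in KO. By the test 0 of the 6 passed and 0 had an unadjusted p under 0.05 (limma), against 0.0291% and 5.74% of all tested genes. Over all tested genes 49.4% had a log2 fold change below 0. The median log2 fold change of the 6 was 0.11. The most abundant were *Cacna1a*, a P/Q-type pore of neurons, with 39, 49 and 41 reads in the KO against 52, 42 and 37 in the WT, *Cacnb4*, a further beta subunit, with 30, 38 and 38 against 47, 36 and 39, and *Cacna2d2*, a further alpha-2/delta subunit, with 33, 48 and 34 against 33, 36 and 37. *Cacna2d3* was below the filter, and was singled out after its values were seen. It had 10, 7 and 4 reads in the KO against 3, 3 and 1 in the WT, the latter all at or under the floor of 3 reads per library, a KO mean at least 2.18-fold higher than that floor averaged over the WT libraries. Without the filter its adjusted p was 0.916 (limma). *Cacna1f*, *Cacng1* to *Cacng5* and *Cacng8* were not analysed here.

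Proteins that place, inhibit or phosphorylate the channel were examined as a second list. Of its 24 genes, 22 had values and 21 passed the filter. In KO hearts 9 of these were higher and 12 lower, with a median log2 fold change of -0.03. Past an adjusted p of 0.05 there were 0, against 0.0291% of all tested genes. At an unadjusted p under 0.05 there were 2 of 21, against 5.74% of all tested genes. *Jph2*, which ties the T-tubule to the sarcoplasmic reticulum, had 788, 772 and 679 reads in the KO against 874, 845 and 791 in the WT. The groups did not overlap, and the log2 fold change came to -0.17 ± 0.07 (SE) at an adjusted p of 0.841 (limma). *Jph2* and *Camk2d* were the 2 of 21 whose groups did not overlap, both lower in KO. Over all tested genes, 4.44% were lower in KO without overlap and 9.07% did not overlap in either direction. *Akap5*, an anchor of protein kinase A at the channel, had 178, 144 and 252 against 153, 153 and 140, a log2 difference of 0.33 ± 0.14 (SE) at an adjusted p of 0.851 (limma). KO replicate 3 was the highest heart and KO replicate 2 lay among the WT values. The most abundant genes of the list were *Ahnak*, a large protein that binds the beta subunit, with 5552, 5652 and 5295 reads against 6177, 5795 and 5423, *Camk2d*, the main cardiac calmodulin kinase, with 1093, 1073 and 1073 against 1207, 1118 and 1116, and *Jph2*. *Rrad*, an inhibitor that binds beta subunits and holds back L-type current, had 329, 272 and 368 against 395, 319 and 244, a log2 difference of 0.03 ± 0.13 (SE).

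**Figure D5:**
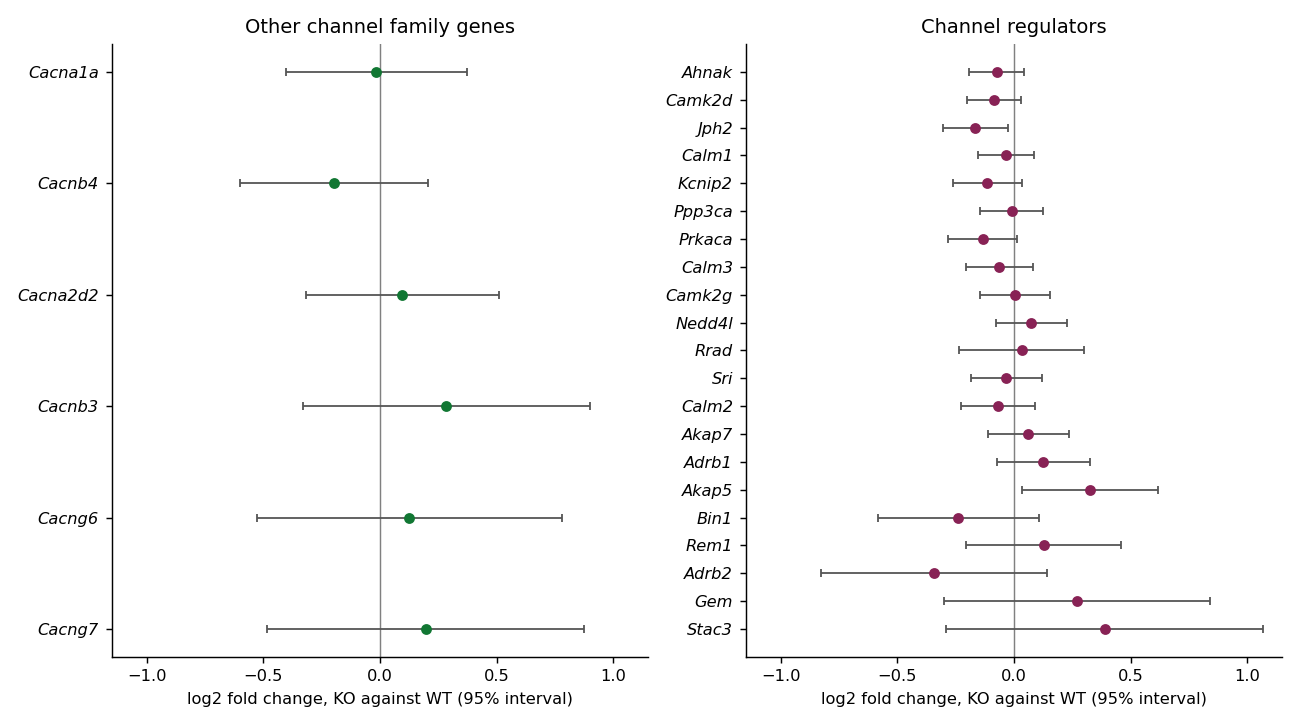
Log2 fold change in KO against WT hearts (horizontal axes, log2 scale of value + 1) with 95% limma intervals for the 6 tested family genes (left) and the 21 tested regulators (right), each ordered by mean read count from the top. The intervals of *Jph2* and *Akap5* leave out 0 before adjustment, and 0 genes passed an adjusted p of 0.05.

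Other annotated genes lie inside or across the subunit loci, as *Trdn-as* lies inside *Trdn*. There were 15 such features in 5 of the loci, 9 on the strand of the subunit and 6 on the opposite strand, and 9 were tested. Of the 9, 0 passed an adjusted p of 0.05 and 1 had an unadjusted p under 0.05 (limma), against 0.0291% and 5.74% of all tested genes. *Cacna1c* and *Cacna1d* share a layout in which the 5′ end of the pore gene is crossed from the opposite strand by a gene of the mRNA decapping enzyme. *Dcp1b* (chr6:119175253-119221616) had 21, 28 and 35 reads in the KO against 24, 21 and 28 in the WT, and *Dcp1a* (chr14:30479612-30527063) had 147, 171 and 154 against 122, 171 and 173. *Chdh*, choline dehydrogenase, crosses the 3′ end of *Cacna1d* from the opposite strand and was singled out after its values were seen. It had 2, 2 and 1 reads against 8, 6 and 5, a WT mean at least 2.25-fold higher than the floor averaged over the KO libraries, and without the filter its adjusted p was 0.837 (limma). The annotated antisense RNAs of the loci were at or under the floor. Gm37759 in *Cacna1s* had 2, 0 and 0 reads in KO hearts and 0 in all WT hearts, and Gm43000 in *Cacna2d1* had 1, 1 and 0 against 0, 3 and 1.

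The features on the strand of the subunit overlapped none of its exons, and *Cacnb2* held 7 of the 9. Summed, those 7 came to 40.5, 48.6 and 51.4 reads per 100 *Cacnb2* reads in the KO against 36.2, 46.5 and 53.8 in the WT, which overlapped. The largest was Gm37437 (chr2:14944908-14946844), with 140, 126 and 159 reads in the KO against 126, 139 and 162 in the WT. Gm37891 (chr2:14966198-14967523) had 58, 70 and 75 against 55, 65 and 83, 2900092N22Rik (chr2:14673404-14674812) 28, 44 and 33 against 25, 28 and 34, and Gm37006 (chr2:14707665-14710338) 17, 22 and 24 against 24, 25 and 35. The processed pseudogene Gm13315 (chr2:14721134-14722124) had 6, 10 and 5 reads against 9, 16 and 14, a log2 difference of -0.82 ± 0.37 (SE) at an unadjusted p of 0.0372 and an adjusted p of 0.851 (limma), and its groups overlapped. In *Cacna1c* the processed pseudogene Gm18981 (chr6:118617626-118619224) had 74, 57 and 47 reads against 63, 80 and 82, a log2 difference of -0.35 ± 0.17 (SE). In *Cacna2d1* Gm43490 (chr5:16107129-16109780) had 77, 115 and 106 against 80, 92 and 107.

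The genes whose pattern over the 6 hearts was nearest to the main subunits were found by the root mean square difference of log2 deviations from the gene mean, among 7062 other tested genes with a mean of at least 100. Nearest to *Cacna1c* were *Msi2*, an RNA-binding protein, at 0.00920 and *Ier3ip1* at 0.0104. Nearest to *Cacnb2* were *Mypn*, a Z-disc protein, at 0.0164 and *Ptpn3*, a phosphatase, at 0.0208, and nearest to *Cacna2d1* was *Nkiras2* at 0.00860. *Mypn* had 1029, 936 and 942 reads in the KO against 1106, 970 and 1025 in the WT, following *Cacnb2* in placing WT replicate 1 highest and KO replicate 2 lowest. The measure favours genes that, like these subunits, varied little.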

How the data were processed

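RNA was measured in 3 KO and 3 WT mouse hearts, grouped by sample titles. The authors trimmed 75-base single-end reads (Trimmomatic 0.39), aligned them to GRCm38 with STAR 2.6.1d, removed duplicates (Picard 2.21.1) and multi-mapping, ribosomal and mitochondrial reads, and counted exons by strand with featureCounts 1.6.5. The deposited score per gene is that count divided by a DESeq2 1.18.1 size factor and rounded. It is called normalised read count here and is not per length. Size factors (0.795 to 1.15) were estimated from the pattern of whole numbers that rounding leaves, with read totals as values times factor. Floors of 3 reads (values of 2.61 to 3.77) cover counting error only.

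Values were tested as log2(value + 1) with limma 3.58.1 (R 4.3.3, eBayes with trend, two-sided, Benjamini-Hochberg, threshold 0.05) on the 13753 genes with a mean of at least 10. The test was checked on simulated data with the same spread beyond counting error for every gene. That check does not cover genes that differ in spread. Fold changes on this scale understate those of low genes. Ratios used exact permutation (scipy 1.17.1). Exons came from GENCODE M21, which holds 99.8% of the identifiers and the same coordinates for 5 of the 8 subunits. The subunits, the lists and the tests were chosen with earlier results of these data known. Named genes were the subunits, *Trdn-as*, *Trdn*, list genes with an unadjusted p under 0.05 or among the 3 most abundant, locus features with a mean of at least 10 and the 2 nearest patterns. Others were named for a marker list or as singled out. Outside these rules stood *Stac3*, *Rrad*, Gm37759, Gm43000 and list genes named as not analysed. Markers of neurons and glia summed to 48 to 89 reads in KO and 73 to 103 in WT hearts, and 0 of 4 adrenal or lung markers had a value to analyse here. A nearest pattern and a coding sequence are not reported here.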

Additional observations from a re-analysis of the deposited data

How the results depend on the processing

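The count of subunit genes past an adjusted p of 0.05 stayed at 0 in all 15 alternatives, namely total scaling, scaling by medians of ratios, limma-voom, no filter, at least 10 in every sample, the replicate block, a pseudocount of 0.1, no mean-variance trend, the read density correction and leaving out each library. At an unadjusted p under 0.05 it was 0 in 14 of them and 1 without KO replicate 1, where *Cacna1s* had a p of 0.00368 (limma). Total scaling moved the median of all genes from 0.002 to 0.025. *Cacna1c*, *Cacna2d1*, *Cacnb2*, *Cacna1s* and *Cacna1g* were lower in KO in each alternative, and *Cacna1d*, *Cacna1h* and *Cacnb1* had no fixed direction. Under the density correction *Cacna1d* was at -0.016 and *Cacnb1* at -0.015. When libraries were left out in turn, the log2 fold change ran from -0.12 to 0.23 for *Cacna1d*, from -0.07 to 0.36 for *Cacna1h* and from -0.14 to 0.14 for *Cacnb1*. The differences of log2 ratios likewise ran from -0.042 to 0.110 for T-type over L-type pores, from -0.040 to 0.011 for *Cacna2d1* to *Cacna1c*, from -0.044 to 0.223 for *Cacnb1* to *Cacnb2* and from -0.410 to -0.005 for *Cacna1s* to *Cacna1c*. Over all genes, 4 passed, 2 with at least 10 in every sample (fewer genes tested), 1 without the trend and 2 to 32 when 1 library was left out, with 32 without KO replicate 1. The cause was not tested.

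Hearts of the same number did not deviate together, so the numbers were not taken as pairs, with correlations of deviations of 0.048, -0.068 and -0.028 between hearts of the same number. With the replicate block 4 genes passed over all genes and 0 subunits, and *Cacna1s* had an unadjusted p of 0.0559 (limma). Depth limits *Cacnb1* most, with 32 to 48 estimated reads and a counting error of 16.1% per heart.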
